A study of Mus musculus with 4 samples.

Results

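The Hedgehog genes described here are *Dhh*, *Ptch1*, *Smo*, *Hhip*, *Gli1*, *Gli2* and *Gli3*. They were chosen by symbol, as 7 of the 30828 genes counted in cells of the mouse testis at postnatal day 8. All 7 symbols were found once in each library. Control mice were *Cnot3* flox/flox and are labelled wild-type, and *Cnot3*-cKO mice were *Cnot3* flox/flox; *Ddx4*-creER, in which a form of Cre that acts after 4-hydroxytamoxifen (4-OHT) is made from the germ cell gene *Ddx4*. Both genotypes carried the floxed allele and both were injected with 4-OHT, so the Sertoli, interstitial and endothelial cells of a *Cnot3*-cKO testis were not targets of the transgene. The labels put the first injection at postnatal day 1 in all 4 samples. They give a last day of 1 and 2 in the control samples and later days, up to 4, in the *Cnot3*-cKO samples. By the labels, the length of dosing therefore goes with genotype. The paper gives the same injection days for all neonatal mice. The part of dosing in differences between the libraries was not tested. Cells positive for the surface proteins CD9 and THY1 were isolated by sorting, and the 3′ ends of their transcripts were captured in droplets, each RNA molecule being counted as 1 unique molecular identifier (UMI). The labels give 2 samples per genotype, but the counts of each genotype are merged into 1 library in which barcodes are not tied to a sample. No test between genotypes was therefore made, and each value below comes with a 95% interval that covers counting error only.

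In the Hedgehog pathway a secreted ligand binds the receptor Patched, which without ligand holds the membrane protein Smoothened inactive. Once Smoothened is released it acts in the primary cilium on the GLI transcription factors. *Ptch1*, *Hhip* and *Gli1* are known targets of the pathway, so their RNA is commonly read as a sign of a responding cell, and PTCH1 and HHIP in turn bind the ligand and limit its reach. In the testis Desert hedgehog, encoded by *Dhh*, is the ligand made by Sertoli cells, the somatic cells that enclose the germ cells, and it is known to act on the peritubular myoid and interstitial cells outside the tubule.

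The control library held 181550221 UMIs and the *Cnot3*-cKO library 168770743. Cells were called by a rule given below, and the filters stated for the study then left 5615 and 6034 cells. The paper reports fewer cells for each genotype, so these are not the same sets of cells. Of the barcodes called as cells, 18 occurred in both libraries, where 11.5 are expected from the size of the barcode list. Cells were clustered without any of the 42 genes of a Hedgehog pathway list, and clusters were named from markers that include none of them. This gave 1400 control and 1723 *Cnot3*-cKO Sertoli-like cells and 3652 and 3881 interstitial cells. Interstitial cells were myoid-like (1345 and 1652), stroma-like (2039 and 2053) or in a cycling cluster that could not be split between both names. A further 241 and 73 cells were germ-like, 33 and 37 endothelial-like and 50 and 61 macrophage-like. Sertoli-like cells expressed all 7 Sertoli markers, at a summed 8244 and 8344 CPM (UMIs of a gene per 1000000 UMIs of the class), against 66.8 to 107 CPM in myoid-like and stroma-like cells. Myoid-like cells held 3532 and 2980 CPM of the myoid list against 312 and 248.6 CPM in stroma-like cells, and the stromal list was high in both. No cluster was named for Leydig cells, whose 7 markers summed to 27.0 and 44.0 CPM in stroma-like cells. The targeted gene *Cnot3* had 69.4 CPM (63.4–75.8) in control and 38.0 CPM (28.8–49.1) in *Cnot3*-cKO germ-like cells, against 64.5 and 67.3 CPM in Sertoli-like cells. A 3′ tag can lie outside the deleted part of a gene, so this level does not measure the deletion.

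The 7 genes are protein coding, and their positions are those of GRCm38 in the GENCODE M21 annotation. *Dhh* lies on the minus strand of chromosome 15 at bases 98891152 to 98898540, and *Ptch1* on the minus strand of chromosome 13 at 63508328 to 63573598. *Smo* is on the plus strand of chromosome 6 at 29735503 to 29761365, and *Hhip* on the minus strand of chromosome 8 at 79965851 to 80058006. *Gli1* is on the minus strand of chromosome 10 at 127329882 to 127341974, *Gli2* on the minus strand of chromosome 1 at 118834132 to 119053619 and *Gli3* on the plus strand of chromosome 13 at 15463235 to 15730026. *Dhh* shares 3389 bases with *Rhebl1* on its own strand, so reads of the 2 genes could be exchanged. *Rhebl1* had 8.32 and 7.34 CPM in Sertoli-like cells, and 3.02 and 2.48 CPM in interstitial cells.

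Promoter sequences from RefSeq (build GRCm38.p6) were matched for 6 of the 7 genes, the missing entry being *Gli1*. The 250 bases before the start site that the table gives are shown 5′ to 3′ on the gene's own strand for the ligand, for the receptor that is also a pathway target, and for the 2 genes whose window held a loose match to the GLI motif, which is in capitals. The windows are chr15:98898541-98898790 (minus strand), chr13:63565736-63565985 (minus strand), chr6:29735247-29735496 (plus strand) and chr1:119053620-119053869 (minus strand). The start of *Ptch1* in the table lies inside the gene span given above, not at its outer end.
Dhh: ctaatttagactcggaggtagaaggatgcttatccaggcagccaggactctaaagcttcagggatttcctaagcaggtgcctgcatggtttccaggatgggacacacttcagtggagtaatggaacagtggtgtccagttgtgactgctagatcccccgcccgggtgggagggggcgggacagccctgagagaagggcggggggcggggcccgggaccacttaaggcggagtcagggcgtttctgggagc
Ptch1: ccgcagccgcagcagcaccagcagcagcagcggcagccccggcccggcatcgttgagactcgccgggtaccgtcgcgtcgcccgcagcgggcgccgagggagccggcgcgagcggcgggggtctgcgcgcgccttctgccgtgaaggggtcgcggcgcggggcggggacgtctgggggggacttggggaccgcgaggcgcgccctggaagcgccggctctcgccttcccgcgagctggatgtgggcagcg
Smo: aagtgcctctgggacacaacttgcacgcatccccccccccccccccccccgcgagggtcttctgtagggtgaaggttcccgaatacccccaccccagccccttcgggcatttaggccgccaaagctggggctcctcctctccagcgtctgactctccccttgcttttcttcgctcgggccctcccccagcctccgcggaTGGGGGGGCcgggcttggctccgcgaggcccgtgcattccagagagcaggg
Gli2: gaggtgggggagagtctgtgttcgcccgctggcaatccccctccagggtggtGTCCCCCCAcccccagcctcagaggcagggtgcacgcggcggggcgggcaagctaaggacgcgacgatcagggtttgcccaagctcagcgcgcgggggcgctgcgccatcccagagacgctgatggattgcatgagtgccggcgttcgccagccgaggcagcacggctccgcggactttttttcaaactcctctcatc
The GLI consensus TGGGTGGTC was searched on both strands from 250 bases before to 50 bases after the start and was found in 0 of the 6 windows. It occurred in 83 of all 32851 promoter windows (0.253%). The looser form TGGGNGGNC was found in 2 of the 6, once in *Smo* on the plus strand at position 200 of the window and once in *Gli2* on the minus strand at position 53, and in 2206 of all windows (6.72%). The 6 windows held between 12 CG dinucleotides (*Dhh*) and 47 (*Ptch1*), and the median window held 7. A match or its absence describes these letters only.

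*Dhh* was a Sertoli gene in both libraries. Its level in Sertoli-like cells was 225 CPM (219–232, from 4734 UMIs) in control and 234 CPM (228–240, from 5779 UMIs) in *Cnot3*-cKO. Interstitial cells held 0.98 CPM and 2.41 CPM. The measured level in Sertoli-like cells was 230-fold (175–307) above that in interstitial cells in control and 97.3-fold (81.7–117) in *Cnot3*-cKO, with free RNA included in both levels, so that the fold in the cells' own RNA may be larger. With each cell thinned to 10000 UMIs, 86.6% (84.7–88.4) of control and 86.7% (84.9–88.3) of *Cnot3*-cKO Sertoli-like cells held a *Dhh* UMI (93.2% and 92.3% without thinning). In interstitial cells the shares were 0.988% and 2.09%. The other mammalian ligands were close to absent from Sertoli-like cells, with 0 and 1 UMI of *Shh* in the control and *Cnot3*-cKO libraries and 1 UMI of *Ihh* in each. Among genes for ligand release, *Disp1*, which encodes a transporter that frees the lipid-bearing ligand, had 14.6 and 14.4 CPM in Sertoli-like cells. *Hhat*, the acyltransferase that attaches a lipid to the ligand, had 3.99 and 4.01 CPM.

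**Figure D1:**
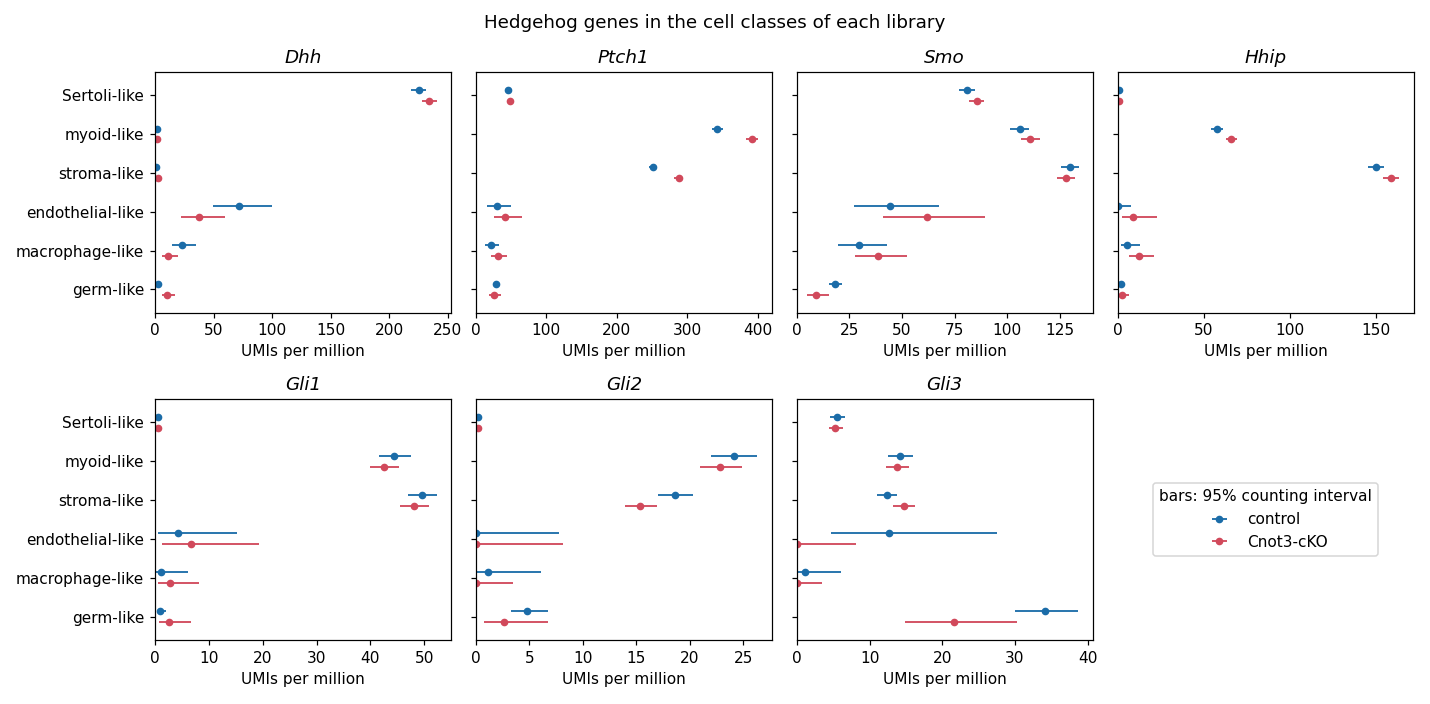
Levels of the 7 Hedgehog genes in 6 cell classes of the control (blue) and *Cnot3*-cKO (red) library, in CPM on a linear axis with its own scale for each gene. Points are the summed level of a class and bars the 95% counting interval. *Dhh* stands out in Sertoli-like cells (225 and 234), while *Ptch1*, *Hhip*, *Gli1* and *Gli2* are highest in the myoid-like and stroma-like cells and *Gli3* is highest in germ-like cells. In *Cnot3*-cKO the *Gli3* interval of germ-like cells overlaps those of myoid-like and stroma-like cells.

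The low *Dhh* signal outside Sertoli-like cells was set against free RNA. Empty barcodes, those of at most 100 UMIs, held 65.5 CPM of *Dhh* in control and 110 CPM in *Cnot3*-cKO. From the Sertoli markers found in interstitial cells, free RNA would give these cells 2.18 CPM of *Dhh* in control and 3.19 CPM in *Cnot3*-cKO, and the measured 0.98 CPM (0.73–1.28) and 2.41 CPM (2.01–2.86) lay below those values. *Dhh* of the interstitial cells themselves was therefore not detectable above free RNA. In germ-like cells *Dhh* had 2.54 CPM (18 UMIs) in control and 10.5 CPM (16 UMIs) in *Cnot3*-cKO, against 4.46 and 8.17 CPM from free RNA. Those estimates rest on all germ-like cells, including a cluster with stromal and Sertoli markers described below. In macrophage-like cells the measured levels were 23.0 and 11.3 CPM and the free RNA estimates 16.2 and 10.5 CPM.

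Endothelial-like cells held more *Dhh* than free RNA would give in *Cnot3*-cKO, at 37.5 CPM (21.8–60.0, from 17 UMIs) against an estimate of 2.25 CPM. These 17 UMIs came from 9 of 37 cells, each of which had at most 5 UMIs of the 7 Sertoli markers. *Dhh* there stood at 16.0% (9.32–25.7) of its Sertoli-like level. The 5 Sertoli markers with a UMI stood at 0.808% to 1.51% of theirs and *Amh* and *Fshr* had none. In control the level of 71.6 CPM (49.6–100), against a free RNA estimate of 37.3 CPM, included 5 of 33 cells with more than 5 Sertoli-marker UMIs, which held 28 of the 34 *Dhh* UMIs. Without these cells the control level was 17.1 CPM (6.28–37.2, from 6 UMIs in 4 of 28 cells). The interval of the control level without these cells overlapped that of *Cnot3*-cKO. The split at 5 UMIs was chosen after the data were seen.

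*Ptch1*, the receptor and a target of the pathway, was highest in myoid-like cells. It had 342 CPM (334–350) there in control and 392 CPM (384–400) in *Cnot3*-cKO, and in stroma-like cells 251 CPM (245–257) and 288 CPM (281–294). Over all interstitial cells it was 6.39-fold (5.98–6.83) above Sertoli-like cells in control and 6.98-fold (6.58–7.41) in *Cnot3*-cKO. Sertoli-like cells still held 45.5 CPM (42.7–48.5) and 48.1 CPM (45.4–50.9) of *Ptch1*, where free RNA would give 1.94 and 3.37 CPM. After thinning, 36.0% and 37.3% of Sertoli-like cells held a *Ptch1* UMI (46.4% and 46.6% without thinning), against 84.4% and 86.8% of interstitial cells (88.3% and 88.1% without thinning). The order in control ran from myoid-like through stroma-like to Sertoli-like cells with intervals apart, and endothelial-like, germ-like (27.9 CPM) and macrophage-like cells (20.8 CPM) followed with intervals that overlapped. *Ptch1* thus differed in degree between Sertoli-like and interstitial cells in both libraries, whereas the targets described next differed far more.

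*Hhip*, which encodes a membrane protein that binds and holds the ligand, had 114 CPM (111–117) in interstitial cells of control and 119 CPM (116–122) in *Cnot3*-cKO. In Sertoli-like cells it had 0.86 CPM (18 UMIs) and 0.97 CPM (24 UMIs), close to the 0.745 and 1.06 CPM that free RNA would give. *Gli1*, the GLI factor that is itself a target, had 47.7 CPM (45.8–49.5) and 45.4 CPM (43.6–47.3) in interstitial cells. Its 0.52 and 0.57 CPM in Sertoli-like cells compare with 0.349 and 0.568 CPM from free RNA. Sertoli-like cells therefore held *Ptch1* and *Smo* clearly above free RNA, with *Hhip* and *Gli1* within counting error of it. The fold of interstitial over Sertoli-like cells, free RNA included, was 133 (84.2–225) and 122 (82.1–191) for *Hhip*, and 91.2 (50.9–183) and 80.0 (47.6–147) for *Gli1*.

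*Smo*, the signal transducer, was the most even of the 7 genes between Sertoli-like and interstitial cells. It had 80.9 CPM (77.1–84.9) and 85.4 CPM (81.8–89.2) in Sertoli-like cells and 118 CPM in interstitial cells of both libraries (115–121 in each). Its order in control ran from stroma-like (130 CPM) over myoid-like (106 CPM) to Sertoli-like cells with intervals apart, then to endothelial-like, macrophage-like and germ-like cells, whose neighbours overlapped. The fold of interstitial over Sertoli-like cells was 1.46 (1.38–1.54) in control and 1.39 (1.32–1.46) in *Cnot3*-cKO. *Gli2*, the main activator of the pathway, had 20.4 CPM (19.3–21.7) and 19.0 CPM (17.8–20.2) in interstitial cells, and only 4 and 6 UMIs over all Sertoli-like cells. *Gli3*, which acts largely as a repressor, had 14.9 CPM (13.9–16.0) and 15.1 CPM (14.1–16.2) in interstitial cells and 5.47 CPM (4.51–6.56) and 5.31 CPM (4.44–6.30) in Sertoli-like cells. Of the 3 GLI factors, *Gli3* alone was above the free RNA estimate beyond counting error in Sertoli-like cells, which was 0.343 and 0.302 CPM for that gene.

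Within the interstitium *Ptch1* and *Hhip* took opposite orders. The level of *Hhip* in stroma-like cells was 150 CPM (145–154) in control and 159 CPM (154–163) in *Cnot3*-cKO, against 57.5 CPM (54.3–60.9) and 66.0 CPM (62.7–69.4) in myoid-like cells. The fold of stroma-like over myoid-like cells was 2.6 (2.44–2.78) and 2.40 (2.27–2.55) for *Hhip* but 0.73 in each library for *Ptch1*. *Gli2* was also lower in stroma-like cells, at 18.6 and 15.4 CPM against 24.1 and 22.8 CPM. *Gli1* differed little, at 49.6 and 48.2 CPM against 44.5 and 42.6 CPM. The plot of *Ptch1* against *Hhip* by cluster shows the same split cluster by cluster. A cluster of 87 *Cnot3*-cKO and 2 control cells, led by *Tagln*, *Ramp1* and *Ltbp2*, took the myoid name by the marker rule but stood apart, with 17.9 CPM of *Ptch1* and 1.05 CPM of *Hhip* in *Cnot3*-cKO. A cluster that comes almost only from 1 library may reflect that library. Leaving it out was among the alternatives over which the log2 ratio of *Ptch1* in interstitial cells, given below, stayed between 0.20 and 0.23.

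**Figure D2:**
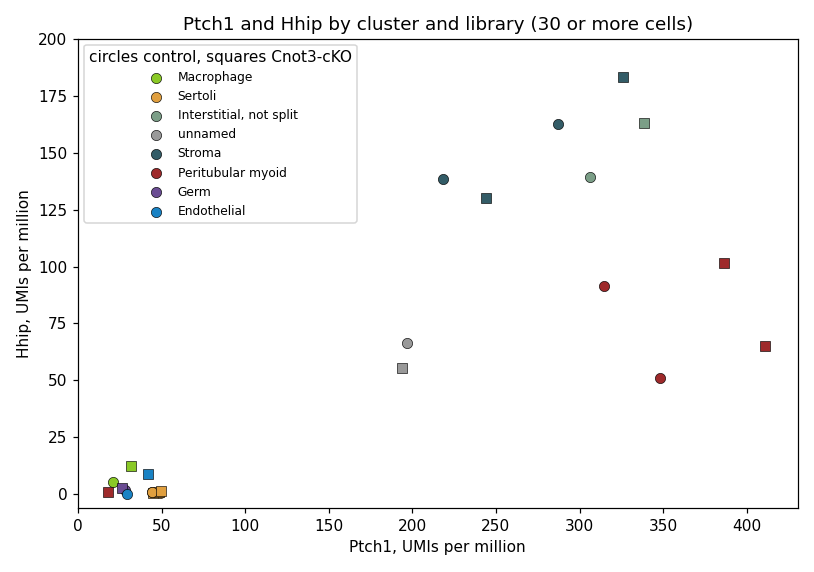
Level of *Ptch1* (x axis) against *Hhip* (y axis), both in CPM, for each cluster with at least 30 cells in a library; circles are control, squares *Cnot3*-cKO and colours the cell class. Stroma-like clusters sit high on *Hhip* at 218 to 326 of *Ptch1*, larger myoid-like clusters sit to their right with 51.0 to 101 of *Hhip*, and Sertoli-like, germ-like, endothelial-like and macrophage-like clusters lie near the origin. A cluster in no named class, made up almost only of called doublets, is also plotted.

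The list of 42 pathway genes was read by role in interstitial cells. Of co-receptors, *Gas1* had 106 CPM in control and 124 CPM in *Cnot3*-cKO, *Boc* 46.1 and 47.2 CPM and *Cdon* 27.2 and 24.6 CPM. These co-receptors help present the ligand to Patched. In Sertoli-like cells *Boc* had 0.52 and 0.36 CPM, while *Cdon* had 13.1 and 10.1 CPM and *Gas1* 11.2 and 9.16 CPM. *Gpc3*, a glypican that binds the ligand and limits the signal, had 376 and 325 CPM in interstitial cells against 1.66 and 2.19 CPM in Sertoli-like cells.

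Several genes downstream of the receptor were spread across both kinds of cell, while *Gli1* and *Gli2* above and *Nr2f2* and *Mycn* below were not. *Csnk1a1*, a kinase that phosphorylates GLI proteins ahead of their processing, had 264 and 277 CPM in interstitial and 291 and 313 CPM in Sertoli-like cells. *Gsk3b*, a second such kinase, had 140 and 135 CPM and 104 and 112 CPM. *Spop*, an adaptor for GLI turnover, had 116 and 123 CPM in interstitial cells and 97.3 and 105 CPM in Sertoli-like cells. *Kif3a*, a motor subunit needed to build the cilium, had 54.4 and 53.8 CPM in interstitial and 49.8 and 48.9 CPM in Sertoli-like cells. *Nr2f2*, a nuclear receptor gene listed as a companion of the pathway, had 391 CPM in interstitial cells of each library and 2.23 and 1.99 CPM in Sertoli-like cells. *Mycn*, also a listed target, took the other order, with 11.8 and 12.4 CPM against 88.5 and 88.6 CPM.

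The levels of the 2 libraries were then set against each other, class by class. In Sertoli-like cells 1.76% of 11065 genes, those reaching 100 UMIs in the 2 libraries together, lay past 1.5-fold in either direction, and of the 7 genes 4 could be measured and 0 lay past it. The ratio of the *Cnot3*-cKO to the control level, on the log2 scale, was 0.06 (0.00 to 0.11) for *Dhh*, and *Ptch1*, *Smo* and *Gli3* had 0.08, 0.08 and −0.04. The median of all genes there was 0.04, with 90% of genes between −0.25 and 0.34. Of the 42 pathway genes 25 were measured and 0 lay past 1.5-fold, with a median of 0.08. The ligand level of Sertoli-like cells was therefore within the range of most genes in these libraries.

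In interstitial cells 2.45% of 12764 genes lay past 1.5-fold, and all 7 genes were measured. *Dhh* lay past it (log2 ratio 1.30, from 0.82 to 1.79), between levels that lay below the free RNA estimates of 2.18 and 3.19 CPM in both libraries. The part of free RNA in that difference was not tested. *Ptch1* had 291 CPM (286–296) in control and 336 CPM (331–341) in *Cnot3*-cKO. The log2 ratio was 0.21 (0.18 to 0.24). *Hhip* had 0.06 (0.01 to 0.11), *Smo* 0.00 (−0.05 to 0.05), *Gli1* −0.07 (−0.15 to 0.01), *Gli2* −0.11 (−0.23 to 0.02) and *Gli3* 0.02 (−0.12 to 0.16). *Ptch1* thus lay above the median of all genes (−0.02) but inside the range of 90% of them, −0.34 to 0.29, and *Gli1* did not share its direction. *Ptch1* was higher in *Cnot3*-cKO in 5 of the 5 interstitial clusters with at least 100 cells in each library, by 0.14 to 0.30 on the log2 scale. In the same 5 clusters *Hhip* was higher in 4, *Gli3* in 3, *Gli1* and *Smo* in 2 and *Gli2* in 1. Of the pathway list 37 genes were measured and 2 lay past 1.5-fold, both higher, *Dhh* and *Scube2*, with a median of 0.02. *Scube2*, which encodes a carrier of the released ligand, had 0.50 CPM in control and 1.49 CPM in *Cnot3*-cKO. For *Scube2* the part of free RNA, and of the cluster of 2 control and 87 *Cnot3*-cKO cells, was not tested.

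**Figure D3:**
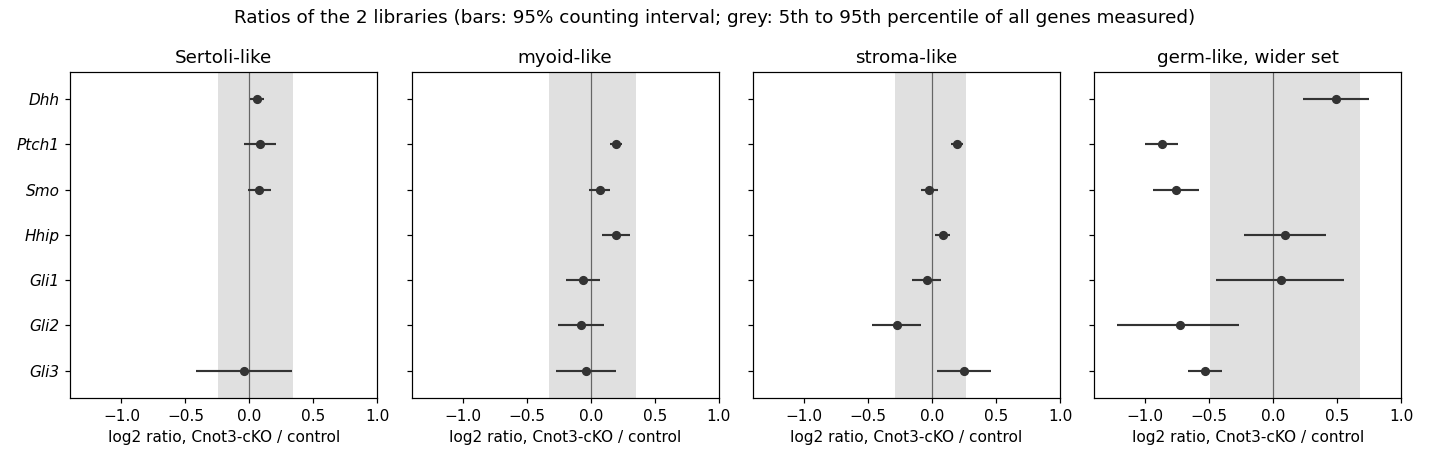
Log2 ratio of the *Cnot3*-cKO to the control level for the Hedgehog genes that reached 100 UMIs in the 2 libraries together, in Sertoli-like, myoid-like, stroma-like and germ-like cells (wider set). Points are ratios, bars their 95% counting interval and the grey band the 5th to 95th percentile of all genes measured in the class. In the somatic classes points lie inside the band, while in germ-like cells *Ptch1* (−0.87), *Smo* (−0.76), *Gli2* (−0.73) and *Gli3* (−0.53) lie below it.

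The classes of the interstitium were also taken alone. In myoid-like cells 2.7% of 11256 genes lay past 1.5-fold, against 0 of the 6 Hedgehog genes measured, and *Ptch1* and *Hhip* each had a log2 ratio of 0.20. In stroma-like cells 1.49% of 11666 genes lay past it, against 0 of 6. There *Ptch1* had a ratio of 0.20 (0.15 to 0.25), *Gli2* −0.28 (−0.46 to −0.09) and *Gli3* 0.25 (0.04 to 0.46). Of the pathway list, 34 genes were measured in each class. In myoid-like cells *Gas1* was higher and *Gpr161*, a receptor of the cilium that restrains the pathway, was lower by more than 1.5-fold, and in stroma-like cells 0 genes lay past it. The myoid-like class includes the cluster of 2 control and 87 *Cnot3*-cKO cells, whose part in the ratios of that class was not tested. With 1 library per genotype, a difference of these sizes cannot be told apart from a difference between libraries.

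In endothelial-like cells few UMIs stood behind each value. There *Ptch1* had 29.5 CPM (16.1–49.4) in control and 41.9 CPM (25.2–65.5) in *Cnot3*-cKO, and *Smo* 44.2 CPM (27.4–67.6) and 61.8 CPM (41.0–89.3). Sertoli markers summed to 1267 and 77.2 CPM in these cells, with 586 of the 602 control UMIs in the 5 cells set apart above, and stromal markers to 73.7 and 1178 CPM. The part of Sertoli and stromal RNA in the *Ptch1* and *Smo* levels was not tested. *Gli2* had 0 UMIs in both libraries, which allows up to 3 UMIs of 475027 and 453292. *Gli1* had 2 and 3 UMIs and *Hhip* 0 and 4. At this depth the 2 libraries could not be told apart for *Ptch1* or *Smo* in these cells, whose intervals overlapped.

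In germ-like cells the pathway showed another composition. Under the filters of the study, *Gli3* had 34.1 CPM (29.98–38.7) in control and 21.6 CPM (14.9–30.3) in *Cnot3*-cKO germ-like cells. This was the highest level of that gene in any named class of each library. In *Cnot3*-cKO its interval overlapped those of stroma-like (13.3–16.2) and myoid-like cells (12.3–15.4). Most germ-like cells were cycling by the limit used below, where cycling interstitial cells are set beside them. *Ptch1* had 27.9 CPM (24.2–32.1) and 26.2 CPM (18.7–35.6), and *Smo* 18.2 CPM (15.2–21.6) and 9.16 CPM (5.01–15.4). Free RNA would give 6.14 and 9.43 CPM of *Ptch1*, 3.36 and 5.03 CPM of *Smo* and 1.08 and 0.847 CPM of *Gli3*. Over the whole class *Gli1* had 7 and 4 UMIs and *Hhip* 12 and 4, with free RNA estimates inside their intervals. The interval of *Smo* in *Cnot3*-cKO reached down to its estimate. Of these cells, 57 of 241 in control and 20 of 73 in *Cnot3*-cKO formed a cluster led by *Col1a2*, *Sparc* and *Col1a1*, with 1260 and 1267 CPM of stromal markers and 306 and 1195 CPM of Sertoli markers. That cluster held 129 of the 198 control and 25 of the 40 *Cnot3*-cKO UMIs of *Ptch1*, and its part in the class levels was not tested. *Gli3* was spread more widely, with 37.8 and 20.5 CPM in that cluster and 27.2 and 17.5 CPM in SSC-like cells, those like spermatogonial stem cells. Of genes measured in germ-like cells 10.4% lay past 1.5-fold between the libraries. Of the 3 Hedgehog genes measured there, *Smo* and *Gli3* lay past it, both lower in *Cnot3*-cKO, at log2 ratios of −0.99 (−1.90 to −0.19) and −0.66 (−1.23 to −0.13), from 14 and 33 *Cnot3*-cKO UMIs.

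Most germ-like cells were lost to those filters, since many had more than 10% mitochondrial UMIs or UMI totals above the upper bound. A wider set, with up to 20% mitochondrial UMIs and no upper bound, held 1333 control and 559 *Cnot3*-cKO germ-like cells. These include clusters led by stromal genes (123 and 49 cells) and by Sertoli genes (90 and 46 cells). The part of those clusters in the totals and ratios of this set was not tested. In it *Ptch1* had 46.1 CPM (44.3–47.9) in control and 25.2 CPM (23.3–27.2) in *Cnot3*-cKO, *Smo* 21.6 CPM (20.4–22.8) and 12.7 CPM (11.4–14.2), and *Gli3* 33.7 CPM (32.2–35.3) and 23.4 CPM (21.5–25.3). *Ptch1*, *Smo* and *Gli2* lay past 1.5-fold, all lower in *Cnot3*-cKO, where 9.96% of 13295 genes lay past it in either direction and 3.16% were lower. Of the pathway list 39 genes were measured, with a median log2 ratio of 0.06. Of these 6 lay past 1.5-fold and were lower, the other three being *Mosmo* (34.7 and 21.5 CPM), which encodes a protein that lowers surface Smoothened, *Gpr161* (4.18 and 2.74 CPM) and *Foxf1* (48.9 and 30.6 CPM), which encodes a forkhead factor known as a Hedgehog target in other tissues. *Cnot3* itself had 71.1 CPM (68.9–73.3) and 39.5 CPM (37.1–41.9) in the wider set.

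The stages of the germ-like cells differed in number between libraries, and their part in these totals was not tested. Clustered again without the 42 pathway genes and named from stage markers, which did enter the clustering, the wider set gave 251 control and 302 *Cnot3*-cKO SSC-like cells, 252 and 19 progenitor-like cells and 314 and 76 differentiating-like cells. *Ptch1* in control had 39.3 CPM (35.6–43.4) in SSC-like, 79.0 CPM (73.9–84.4) in progenitor-like and 3.87 CPM (2.89–5.08) in differentiating-like cells. In *Cnot3*-cKO it had 18.0 CPM (15.8–20.3), 39.1 CPM (27.1–54.6) and 4.72 CPM (2.75–7.55). The order of the stages was the same in both libraries of the wider set. Under the filters of the study SSC-like over differentiating-like cells was 10.6-fold (5.04–25.6) in control but 0.94-fold (0.262–4.18) in *Cnot3*-cKO, from 9 and 4 UMIs, and no cluster was progenitor-like. Progenitor-like cells were 20.4-fold (15.4–27.5) above differentiating-like cells in control and 8.29-fold (4.50–15.8) in *Cnot3*-cKO. After thinning, 52.4% (46.0–58.8) of control progenitor-like cells held a *Ptch1* UMI (93.7% without thinning), against 34.5% (28.6–40.8) of SSC-like and 3.91% (2.04–6.73) of differentiating-like cells (67.7% and 13.7% without thinning). In *Cnot3*-cKO the shares were 27.8% (9.69–53.5), 19.1% (14.8–24.0) and 7.89% (2.95–16.4).

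Values that bear on these stage levels were measured beside them. Free RNA would give *Ptch1* 1.62 to 2.88 CPM in the 3 stages of both libraries, and *Dhh*, which marks Sertoli RNA, had 1.08 to 2.50 CPM. The summed stromal markers, whose cells hold most *Ptch1*, were 64.8 to 103 CPM in the 3 stages, against 16505 and 15803 CPM in stroma-like cells, and were lowest in the control progenitor-like cells. Scrublet, which scores each cell against simulated doublets, called 0 of the 252 and 19 progenitor-like cells. Of the control progenitor-like cells 192 of 252 had more than 10% mitochondrial UMIs and 17 passed the filters of the study. The log2 ratio of progenitor-like over differentiating-like cells in control was 4.35, and 4.11 with the cells of at most 10% mitochondrial UMIs alone. Germ-like clusters led by Sertoli genes (90 and 46 cells) or by stromal genes (123 and 49 cells) were kept out of the stages. So were 303 control and 67 *Cnot3*-cKO germ-like cells in clusters that took no stage name. Their Sertoli markers summed to 47.2 and 73.5 CPM and their stromal markers to 72.7 and 93.7 CPM. The 3 stages thus leave out these germ-like cells of the wider set as well.

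**Figure D4:**
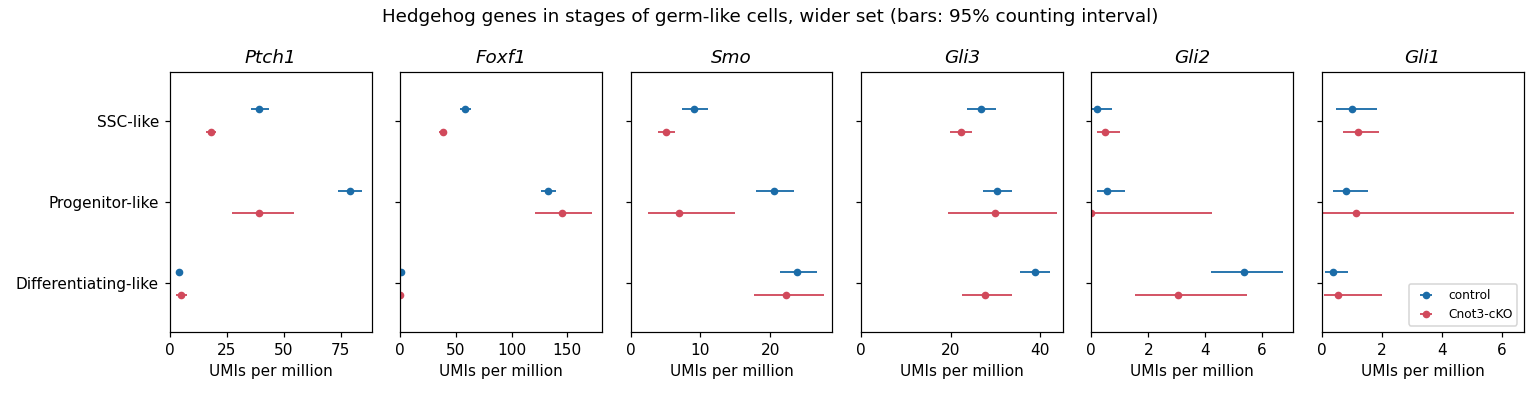
Levels of *Ptch1*, *Foxf1*, *Smo*, *Gli3*, *Gli2* and *Gli1* in the 3 named stages of germ-like cells (wider set), in CPM with 95% counting intervals, control in blue and *Cnot3*-cKO in red, each gene on its own linear scale. *Ptch1* and *Foxf1* peak in progenitor-like cells and are near 0 in differentiating-like cells, where *Gli2* is highest, and *Gli1* lies between 0.372 and 1.199 in all 3 stages of both libraries.

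*Foxf1* followed the order of *Ptch1*. It had 58.5 CPM (53.8–63.4) in SSC-like, 133 CPM (126–140) in progenitor-like and 0.82 CPM (11 UMIs) in differentiating-like cells of control, and 38.0 CPM (34.9–41.4), 145 CPM (121–173) and 0.28 CPM (1 UMI) in *Cnot3*-cKO. In interstitial cells, the site of most *Ptch1*, *Foxf1* had 0.24 CPM in each library. *Smo* and *Gli2* did not share the low level of *Ptch1* in differentiating-like cells. *Smo* had 9.06, 20.6 and 23.9 CPM in SSC-like, progenitor-like and differentiating-like cells of control and 5.08, 6.90 and 22.2 CPM in *Cnot3*-cKO. Its fold of differentiating-like over progenitor-like cells was 1.16 (0.977–1.38) in control, so these neighbours were not separated. *Gli2* had 2, 6 and 72 UMIs in control and 7, 0 and 11 UMIs in *Cnot3*-cKO, or 5.36 and 3.05 CPM in differentiating-like cells. *Gli3* ran across the stages from 26.8 to 38.8 CPM in control and 22.2 to 29.9 CPM in *Cnot3*-cKO.

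Between libraries, within a stage, the log2 ratio of *Ptch1* was −1.13 (−1.36 to −0.90) in SSC-like cells. The ratio was −1.02 (−1.55 to −0.52) in progenitor-like cells, from 19 *Cnot3*-cKO cells, and 0.29 (−0.60 to 1.10) in differentiating-like cells. The SSC-like cells of the 2 libraries fell into different clusters. One cluster of 131 control and 25 *Cnot3*-cKO cells had 24.5 and 6.57 CPM of *Ptch1*, another of 119 and 11 cells had 54.7 and 64.3 CPM, and the last of 1 and 266 cells had 16.9 CPM in *Cnot3*-cKO. The direction of the SSC-like difference therefore did not hold in each cluster, and the part of the cluster split in it was not tested. *Smo* was lower in *Cnot3*-cKO in SSC-like cells by a log2 ratio of −0.84 (−1.30 to −0.37), and differed by −0.11 (−0.48 to 0.25) in differentiating-like cells.

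Cells with at least 5 UMIs over 6 cell-cycle genes, a limit set after the data were seen, were compared with other cells of their class. *Dhh* in Sertoli-like cells was 184 CPM (173–195) in the 313 cycling and 242 CPM (234–250) in the 1087 other cells of control, and 198 CPM (187–210) against 246 CPM (239–253) in *Cnot3*-cKO. *Gli3* took the opposite direction. In Sertoli-like cells it had 10.8 CPM (8.35–13.8) in cycling and 3.33 CPM in other cells of control, and 10.6 CPM (8.19–13.5) against 3.56 CPM in *Cnot3*-cKO. In interstitial cells *Gli3* had 29.1 against 12.9 CPM in control and 26.3 against 14.1 CPM in *Cnot3*-cKO. *Hhip* in interstitial cells was 132 against 111 CPM and 158 against 116 CPM. Over the pooled classes both libraries showed each of these directions, with intervals that did not overlap. Only 19 control and 21 *Cnot3*-cKO stroma-like cells were cycling. Among stroma-like cells *Hhip* had a log2 ratio of cycling over other cells of −0.39 (−0.92 to 0.10) in control and 0.48 (0.13 to 0.81) in *Cnot3*-cKO. *Gli3* had 0.73 (−0.73 to 1.86) and −1.32 (−4.37 to 0.55), the latter from 2 UMIs in cycling cells. In myoid-like cells the ratios were 0.59 (0.24 to 0.92) and 0.43 (−0.003 to 0.83) for *Hhip*, and 0.63 (−0.10 to 1.29) and 1.13 (0.33 to 1.84) for *Gli3*. The negative ratios in stroma-like cells had intervals that included 0, so the pooled directions were not settled in that class. Cycling cells were deeper, with a median of 18915 against 13289 UMIs in Sertoli-like cells of control, and the part of depth in these differences was not tested. Of the germ-like cells, 233 of 241 in control and 71 of 73 in *Cnot3*-cKO were cycling. Their *Gli3* level was 34.0 CPM (29.8–38.7) and 21.9 CPM (15.1–30.7). Those intervals overlapped the ones of cycling interstitial cells, 25.1–33.5 and 21.7–31.7 CPM.

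**Figure D5:**
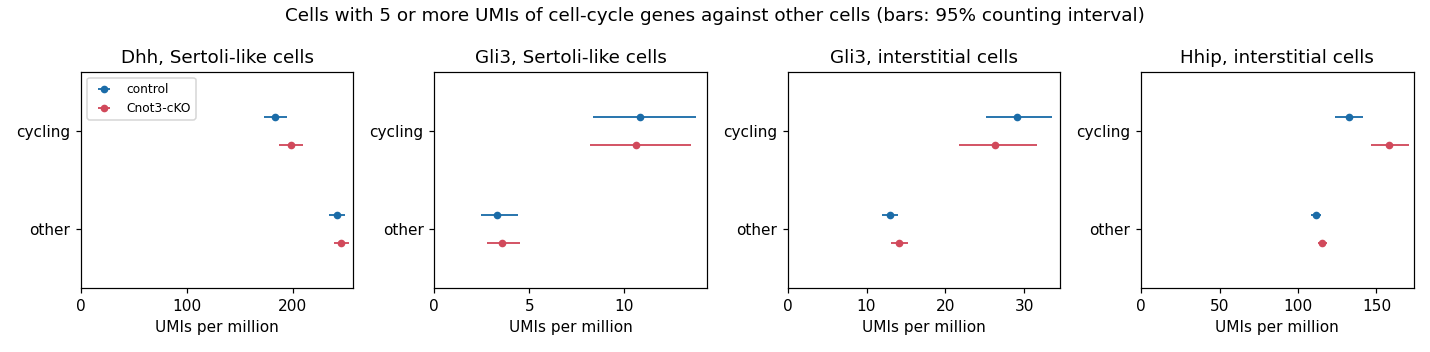
Levels of *Dhh* and *Gli3* in Sertoli-like cells and of *Gli3* and *Hhip* in interstitial cells, in CPM with 95% counting intervals, for cells with at least 5 UMIs of 6 cell-cycle genes (cycling) and other cells, control in blue and *Cnot3*-cKO in red. *Dhh* is lower in cycling cells and *Gli3* and *Hhip* are higher, in each library.

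The genes most like *Dhh*, *Ptch1* and *Gli1* across clusters were found by the Pearson correlation of log2(CPM + 1) over 25 points, each a cluster of at least 30 cells in 1 library, among 11739 genes. The points share 2 libraries and a cluster occurs in both, so the coefficients are descriptions. They include a cluster in no named class, described below, that held both *Dhh* and *Ptch1* and in which nearly all cells were called doublets. Its part in the coefficients was not tested. Nearest to *Dhh* were *Lsr* (0.982), *Exoc3l2* (0.982), *Chp2* (0.979), *Tgif1* (0.977) and RP23-145I16.5 (0.976). *Ptch1* was nearest to *Bmp5* (0.964), RP23-291B1.2 (0.957), *Ms4a10* (0.942), *Plppr5* (0.941) and RP24-465G18.2 (0.939). *Gli1* was nearest to *Cped1* (0.988), *Tbx2* (0.980), *Igdcc4* (0.979), *Efna5* (0.979) and *Hic1* (0.976). Among the Hedgehog genes, *Ptch1* had 0.903 with *Hhip* and 0.862 with *Gli1*, and *Dhh* had −0.560 with *Ptch1*. The ligand and the receptor thus had opposite signs, while the receptor and the other targets had positive coefficients with each other. The neighbours depended on the measure, since ranks by Spearman kept 1 of the 5 genes for *Dhh*, 0 for *Ptch1* and 2 for *Gli1*.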

How the data were processed

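The authors deposited unnormalised UMI counts, which they had made with Cell Ranger (version 3.0.1), Ensembl 93 and, per the submitters' processing notes, mm10. The 2 matrices list every barcode and merge 2 samples each. The study's methods name NextSeq and NovaSeq runs, and samples and runs were not separated in the matrices. A barcode was called a cell from its UMI total, with 3000 cells expected and a limit at 0.1 of the 99th percentile of the largest (7977 and 7664 UMIs). The stated filters followed, a limit of 10% mitochondrial UMIs and bounds of 2 SD. Cells of both libraries were clustered with scanpy (1.11.5) on 2500 variable genes, 30 principal components, 15 neighbours and Leiden resolution 0.5, and named from marker lists by a scoring settled after the data were seen. Doublets called by Scrublet, run through scanpy, were kept, and their removal was 1 of the alternatives.

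UMIs were summed per class and library and given as CPM, with exact Poisson intervals for levels, exact conditional intervals for ratios and Clopper-Pearson intervals for shares (scipy 1.17.1), all at 95% and for counting error only. For a count of 0 the upper limit was taken as 3 counts. Free RNA was estimated from other classes' markers against barcodes of at most 100 UMIs. A gene counted as measured with at least 100 UMIs over both libraries. With 1 library per genotype no p-value was computed, and nothing in the sources used here says that the labelled samples came from separate animals. The ratio step was tested on simulated data.

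The members, the gene lists and the tests were chosen with earlier results of these data known. The text names all 7 members and *Cnot3*. From each role of the pathway list it draws on the 4 genes highest in the class described, and for likeness on the 5 genes nearest to *Dhh*, *Ptch1* and *Gli1*. It also names class markers. Other genes named, such as those past 1.5-fold, genes compared between classes and cluster leaders, were chosen after their values were seen. *Mosmo* and *Grk2* were matched by identifier. Gene positions matched for 30766 of 30828 identifiers. 1 gene of the pathway list is not reported here by name.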

Additional observations from a re-analysis of the deposited data

Results flagged for a closer look

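*Ptch1* differed in opposite directions between the libraries in germ-like and in interstitial cells. Relative to control, the *Cnot3*-cKO level stood at a log2 ratio of −0.87 (−0.998 to −0.75) in germ-like cells of the wider set and 0.21 (0.18 to 0.24) in interstitial cells. The difference between the 2 ratios was not tested, since each genotype has 1 library. The germ-like cells of the wider set include clusters led by stromal or Sertoli genes, whose part in that ratio was not tested. Under the filters of the study the ratio in germ-like cells was −0.09 (−0.62 to 0.40), from 73 *Cnot3*-cKO cells.

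A cluster in no named class held both the ligand and the receptor. In its 209 control and 239 *Cnot3*-cKO cells *Dhh* had 105 and 128 CPM and *Ptch1* 197 and 194 CPM. Scrublet called 208 of the 209 and 237 of the 239 cells doublets, and their median of 25858 and 24143 UMIs lay above the 13827 and 13292 of Sertoli-like cells. These cells entered no comparison of named classes. Their cluster was among the points of the correlations and of the plot of *Ptch1* against *Hhip*.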

How the results depend on the processing

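No paired analysis was possible because the samples of each genotype are merged, and for the same reason no sample could be left out in turn. Over 112 alternatives listed at the outset and 6 chosen after the data were seen, 117 values that the alternatives gave stayed within their counting interval or within 1.5 times and 28 moved beyond it. The sign changed in 1 ratio whose interval lay off 0. The log2 ratio of *Hhip* in interstitial cells was −0.0082 at Leiden resolution 1.0 against 0.06, where a cluster rich in *Hhip* left the class. Ratios whose interval held 0 also crossed it, from −0.02 to 0.02 for *Smo* and from −0.0059 to 0.13 for *Gli3*. Ratios ranged from 0.02 to 0.08 for *Dhh* in Sertoli-like cells and from 0.20 to 0.23 for *Ptch1* in interstitial cells. Without mitochondrial and the 50 most abundant genes, control levels were 292 CPM for *Dhh* in Sertoli-like cells, and 417 CPM for *Ptch1* and 68.3 CPM for *Gli1* in interstitial cells. *Ptch1* there was 298 CPM with the empty-barcode profile subtracted and 284 CPM as a mean over cells. The same subtraction, added after the data were seen, moved the log2 ratio of *Ptch1* in progenitor-like over differentiating-like cells from 4.35 to 5.23. The looser motif gave 2 member promoters in place of 0. The share of genes past 1.5-fold depended on the filter on low counts. At 20 UMIs it was 5.99% in Sertoli-like, 6.82% in interstitial, 7.48% in myoid-like, 5.83% in stroma-like and 20.7% in germ-like cells, and 15.7% in the wider germ-like set. With 1 UMI in each library it was 15.9%, 16.4%, 16.6%, 15.8%, 32.2% and 24.6% in the same order. Past 2-fold it was 0.262%, 0.494%, 0.675%, 0.266%, 1.67% and 2.47%. Few UMIs stand behind the endothelial-like cells, the macrophage-like cells and the 19 *Cnot3*-cKO progenitor-like cells.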

Other observations

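At Leiden resolution 1.0 a cluster of 98 control and 136 *Cnot3*-cKO cells, led by *Hsd3b1*, *Hhip*, *Oxtr*, *Gdpd2* and *Lhcgr*, stayed unnamed. It was described after its values were seen. *Hsd3b1* encodes a steroid-making enzyme and *Lhcgr* the receptor for luteinising hormone. *Hhip* had 259 CPM (236–284) in control and 347 CPM (323–371) in *Cnot3*-cKO cells of that cluster, against 150 and 159 CPM in stroma-like cells. *Ptch1* had 238 CPM in each library. *Gli1* had 26.6 CPM (19.6–35.3) and 32.4 CPM (25.6–40.5), below the 49.6 and 48.2 CPM of stroma-like cells, and *Gli2* had 6.09 and 8.41 CPM against 18.6 and 15.4 CPM.

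In SSC-like cells of the wider set, 4 genes of the primary cilium were set side by side after their values were seen. *Kif3a* had 138 CPM (131–146) in control and 213 CPM (206–221) in *Cnot3*-cKO, and *Ift88*, a subunit of the transport machinery of the cilium, 18.2 CPM (15.7–21.1) and 29.98 CPM (27.2–33.0). *Arl13b* had 11.3 and 15.1 CPM, and *Ift172* 9.46 CPM (7.66–11.6) and 10.6 CPM (8.96–12.4), whose intervals overlapped. In progenitor-like cells *Arl13b* had 14.7 and 12.6 CPM and *Ift172* 10.6 and 5.75 CPM, both lower in *Cnot3*-cKO. Few UMIs from 19 *Cnot3*-cKO cells stand behind those values, and the SSC-like intervals of *Ift172* overlapped. No reversal between the stages is therefore read from these genes. *Kif3a* and *Ift88* are not given for that stage. The SSC-like cells of the 2 libraries fell into different clusters, and the part of that split in these values was not tested. What share of all genes differed as much between libraries in SSC-like cells was not computed.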
